A study of Homo sapiens with 2 samples.

Results

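The G1 cyclins, cyclin-dependent kinases (CDKs) and pocket proteins described here are 8 genes: the D-type cyclins CCND2 and CCND3, the kinases CDK4, CDK6 and CDK2, and the pocket proteins RB1, RBL1 and RBL2. They were taken by gene symbol from the platform annotation. All 8 were named there, by 9 probe sets (CCND2 had 2), among 14884 named genes in all. They were chosen with their values on these arrays known, so every value below is a description and none is a test. Expression was read on 2 Affymetrix Human Gene 2.0 ST arrays, which summarise short probes along each transcript to 1 value per probe set. One array held RNA of HT1080 cells that had received virus with an shRNA against cMyc. The other held that of HT1080 cells that had received a non-targeting control shRNA. HT1080 is an established human fibrosarcoma line, both cultures were infected and grown in DMEM, and both were harvested 48 hours after infection. The submitters' design line speaks of transfection where their protocol speaks of viral infection, and neither text states how many hairpins were used.

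As background, D-type cyclins bind CDK4 and CDK6 in response to growth factors and open the phosphorylation of the pocket proteins. Cyclin E with CDK2 completes it, and E2F transcription factors are then released from pocket proteins and switch on genes of DNA synthesis. RB1 mainly restrains the activating E2Fs, while RBL1 (p107) and RBL2 (p130) bind the repressive E2Fs and, with the MuvB complex, form the DREAM repressor of resting cells. MYC encodes a transcription factor of growth, and CDK4 and CCND2 have been described as its direct targets.

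The deposited values are levels on a log scale whose base, inferred from their range, is taken as 2, and every difference is the log2 value of the cMyc shRNA array minus that of the control shRNA array. Array medians were 3.73 with the cMyc shRNA and 3.68 with the control shRNA. A gene is called measured where its mean over the arrays reached 3.70, the median of all 53617 probe sets, which held for 10258 named genes. A listed gene that is not measured either lay under this level or had no named probe set here. Each condition has 1 array, so the spread between cultures is unknown and no test or p-value is given. The only spread available is that between probe sets of the same gene. From such pairs over 416 genes, the SD of the log2 difference of 1 probe set was 0.34, called the technical SD below. The SD of a gap between the differences of 2 genes follows as 0.48. This SD mixes true differences between the probe sets of a gene with measurement error, and it holds no error that those probe sets share. MYC itself, the target, had 6.16 on the cMyc shRNA array and 7.09 on the control array, a difference of -0.93 (1.91-fold lower). Of the 15 mesenchymal markers, 9 had a named probe set here and 8 were measured, with differences from -0.59 to 0.36 and a median of 0.077. Above 0 were 6 of them and below 0 were 2. VIM, the lowest of the 8, had 9.34 with the cMyc shRNA and 9.94 with the control shRNA on its brightest probe set (-0.59). Its other probe sets had -0.95 and -1.02. Of the epithelial markers, 6 of 13 were measured, with differences from -0.69 to 0.53 and a median of -0.32. The brighter probe set of KRT18 had -0.69 and the dimmer one 0.12, CLDN7 had 0.53, KRT8, KRT19, CLDN3 and ESRP2 had -0.68, -0.46, -0.17 and -0.057, and EPCAM, ESRP1, KRT5, KRT14, CLDN4 and OCLN lay under the level filter. Of the haematopoietic markers, 2 of 9 were measured: CD68, a lysosomal protein, had 11.3 with the cMyc shRNA and 10.4 with the control shRNA (1.88-fold higher), and SPI1 had 4.56 with the cMyc shRNA and 4.64 with the control shRNA. CD14, LYZ and IKZF1 lay under the filter, and the part of these marker shifts in the values below was not tested. Interferon-stimulated genes moved between the same arrays: 20 of the 21 measured ones were past 2-fold higher with the cMyc shRNA, with a median difference of 3.60. On the control array 7 of the 21 lay under the filter, so the sizes of those differences are uncertain, and the part of these genes in the values below was not tested.

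Of the 8 genes, 3 lay past 2-fold and 5 within it: CDK6 was higher with the cMyc shRNA, and CDK2 and RBL1 were lower. Over all measured named genes, 6.01% lay past 2-fold in either direction, 206 of them higher and 410 lower. Since the genes were chosen with these differences known, nothing is read from their share against that background. Below 0 were 6 of the 8 and above 0 were 2, while 5265 of the 10258 measured genes lay below 0 and 4977 above. CCND2, counted below 0, lay above it with the mean over its probe sets. The median difference was -0.35 over the 8 genes and -0.012 over all measured genes. For the same reason, nothing is read from these signs or medians. The member just past 2-fold was CDK2, at -1.08, and the one nearest to it inside 2-fold was CDK4, at -0.65. At 1.5-fold, where 20.7% of all measured genes lay past the threshold in either direction, CDK4 joined CDK2 and RBL1 as the 3 members lower and CDK6 stayed the 1 member higher. At 3-fold, which 1.70% of all measured genes passed, there were 0 members on either side. In RNA from whole cultures, fewer cells in a given phase of the cycle and less RNA per cell cannot be told apart.

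**Figure D1:**
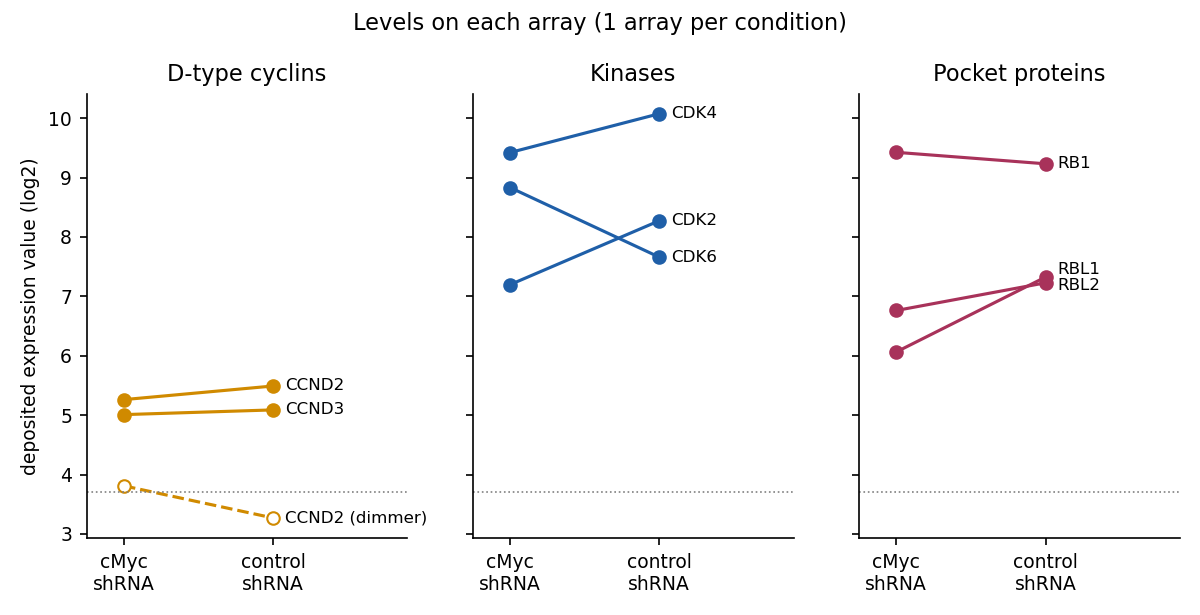
Deposited log2 expression value of each of the 9 probe sets (vertical axis) on the cMyc shRNA array (left point) and the control shRNA array (right point), by class, with 1 array per condition. The lines of CDK6 and CDK2 slope in opposite directions, the dashed line is the dimmer CCND2 probe set, the dotted line is the level filter at 3.70, and heights of different probe sets are not comparable.

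Both D-type cyclins lay close to 0. CCND2, a regulatory subunit of CDK4 and CDK6, had a log2 level of 5.26 on the cMyc shRNA array and 5.49 on the control array, a difference of -0.23 on its brighter probe set (16746992). Its dimmer probe set (16760142) had 3.81 on the cMyc shRNA array and 3.27 on the control array, a difference of 0.54, with a mean under the level filter. The probe sets of CCND2 thus differ in direction, and the mean over both gave 0.16 in place of -0.23. CCND3, the D-type cyclin prominent in lymphoid cells, had 5.01 on the cMyc shRNA array and 5.09 on the control array, a difference of -0.079. CCND1, the remaining D-type cyclin, is outside the 8 genes and had 9.55 with the cMyc shRNA and 9.93 with the control shRNA, a difference of -0.38. The gap between the differences of CCND3 and CCND2 was 0.15, less than the SD of a gap.

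The G1 kinases went apart. CDK6 had a log2 level of 8.83 on the cMyc shRNA array and 7.66 on the control array (probe set 17059756), a difference of 1.17, or 2.25-fold higher. Of the 10258 measured genes, 138 had a higher difference. CDK4, which shares the D-type cyclins with CDK6, had 9.42 on the cMyc shRNA array and 10.1 on the control array (probe set 16766683), a difference of -0.65, or 1.57-fold lower. CDK2, the partner of cyclins E and A, had 7.20 on the cMyc shRNA array and 8.27 on the control array (probe set 16752305), a difference of -1.08, or 2.11-fold lower. A lower difference than that of CDK2 was found for 332 measured genes, and a lower one than that of CDK4 for 1011.

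Set against each other, CDK6 and CDK4 had differences 1.82 apart, so the signal of CDK6 relative to that of CDK4 was 3.54-fold higher on the cMyc shRNA array. This gap was 3.84 times the technical SD of a gap. CDK6 and CDK2 lay 2.25 apart, a 4.75-fold shift and 4.73 times that SD. CDK4 and CDK2 lay 0.42 apart, which is 0.89 times the SD of a gap. These multiples describe disagreement between probe sets alone and hold no variation between cultures. Since the genes were chosen with these values known, the multiples test nothing.

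**Figure D2:**
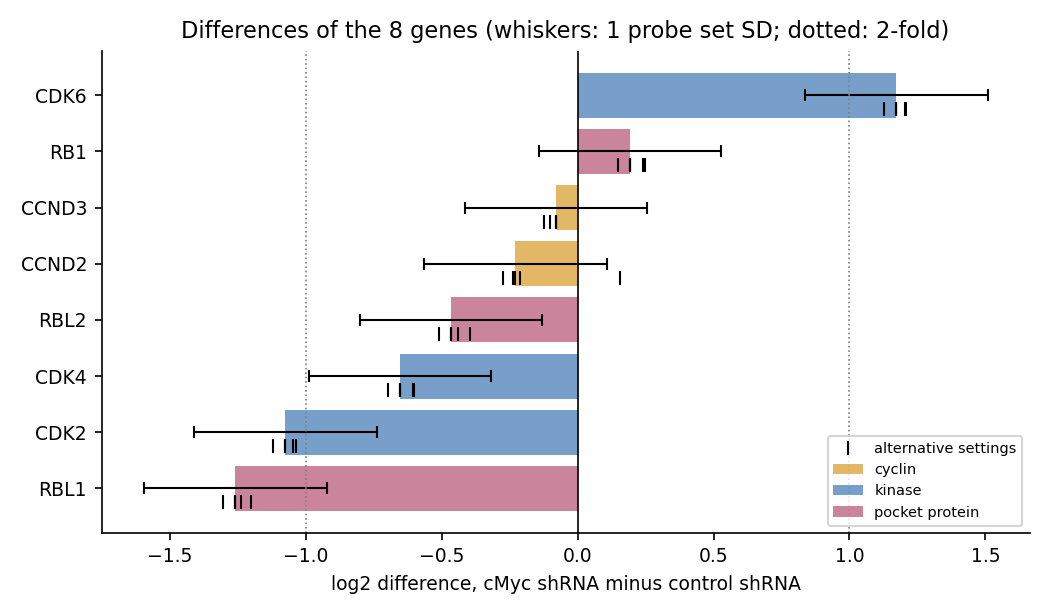
Log2 difference (horizontal axis, cMyc shRNA minus control shRNA) of the 8 genes from the highest to the lowest, with bars coloured by class, whiskers of 1 technical SD of a probe set (0.34) and black ticks for other scalings, level filters and probe set rules. CDK6 at 1.17 stands past the dotted 2-fold line on the right, CDK2 at -1.08 and RBL1 at -1.26 past the one on the left, and the tick of CCND2 at 0.16 is the mean over its probe sets.

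The pocket proteins also differed among themselves. RBL1, which binds the repressive E2F4 and is itself described as an E2F target, had a log2 level of 6.06 on the cMyc shRNA array and 7.32 on the control array (probe set 16919044). Its difference of -1.26, or 2.39-fold lower, was the lowest of the 8 genes, and 219 measured genes had a lower one. RBL2, the pocket protein most associated with resting cells, had 6.76 on the cMyc shRNA array and 7.23 on the control array (probe set 16818980), a difference of -0.47, or 1.38-fold lower. RB1, the retinoblastoma tumour suppressor, had 9.42 on the cMyc shRNA array and 9.23 on the control array (probe set 16774690), a difference of 0.19, less than the technical SD. RB1 and RBL1 lay 1.45 apart, which is 3.06 times the SD of a gap, so the signal of RB1 relative to that of RBL1 was 2.74-fold higher on the cMyc shRNA array. RBL2 lay between them, 0.66 below RB1 (1.39 times the SD of a gap) and 0.79 above RBL1 (1.67 times).

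Across the 8 genes, 3 lay farther from 0 than 3 technical SDs, namely RBL1, CDK2 and CDK6, and 3 lay closer to 0 than 1 such SD, namely RB1, CCND3 and CCND2. The first 3 are those already past 2-fold, a limit close to 3 technical SDs. No share over all measured genes was counted at these SD limits, so nothing is read from the counts. The middle 50% of all measured genes had differences between -0.31 and 0.26, and the central 90% between -0.91 and 0.73. RBL1, CDK2 and CDK6 lay outside that central range, and CDK4, RBL2, RB1 and both cyclins inside it.

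**Figure D3:**
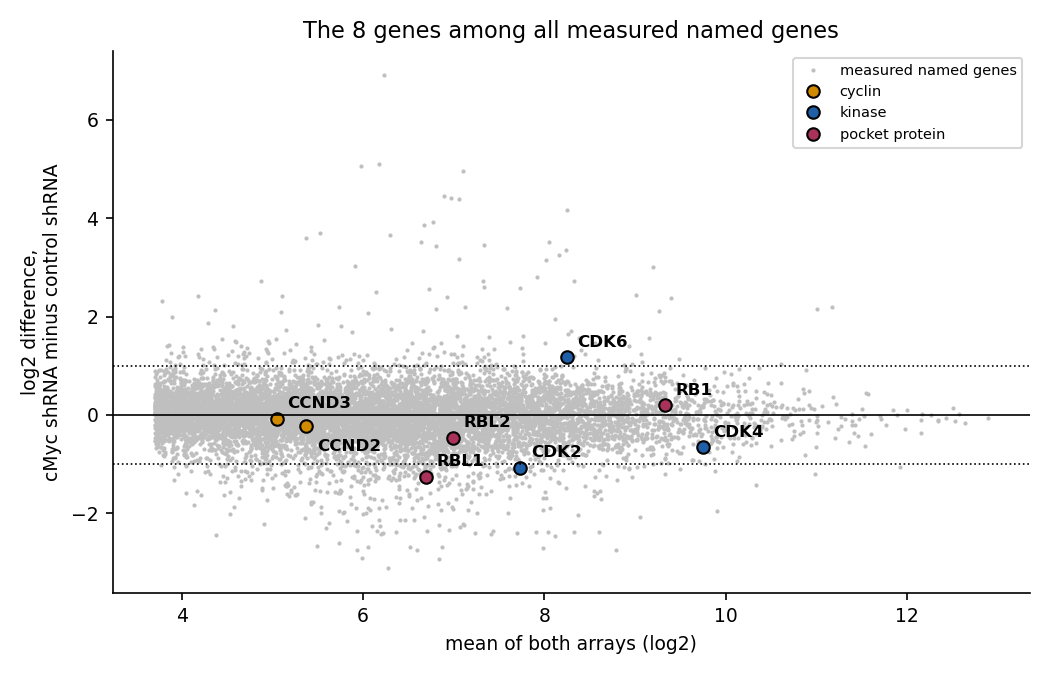
Log2 difference (vertical axis, cMyc shRNA minus control shRNA) against the mean log2 level of both arrays (horizontal axis) for the 10258 measured named genes in grey, with the 8 genes in colour by class and dotted lines at 2-fold. CDK6, with 138 of the measured genes above it, lies past the upper dotted line. RBL1 and CDK2, with 219 and 332 measured genes below them, lie past the lower one, and the other members lie between the lines.

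RefSeq promoters of assembly GRCh38.p14, from 250 bases before to 50 after a transcript start, were matched by symbol for 6 of the 8 genes, with 10 starts between them. CDK2 and CCND2 are named only. Motifs were searched on both strands as exact letters: the E-box CACGTG, which MYC with MAX can bind, the E2F letters TTTCCCGC, TTTCGCGC, TTTGCCGC and TTTGGCGC, the cell cycle homology region (CHR) TTTGAA of DREAM and MuvB targets, and the GC box GGGCGG. Of all 35116 promoters, 7.26% hold the E-box, 3.31% an E2F match, 15.2% the CHR and 45.0% the GC box. No matches overlap each other in the promoters of these genes. The promoters of CDK4, CDK6 and RBL1 are shown because these genes carry the contrasts described above and hold all the E-box and E2F matches found in these 10 promoters. Capitals mark those matches, and each sequence reads 5′ to 3′ on the strand of its gene.
CDK4, chr12:57752261-57752560, minus strand: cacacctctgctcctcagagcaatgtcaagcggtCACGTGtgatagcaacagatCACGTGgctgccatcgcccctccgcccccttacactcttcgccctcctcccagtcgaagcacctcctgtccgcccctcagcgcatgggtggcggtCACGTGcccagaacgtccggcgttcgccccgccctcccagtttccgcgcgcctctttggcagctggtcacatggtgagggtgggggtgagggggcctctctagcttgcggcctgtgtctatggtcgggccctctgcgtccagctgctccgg
CDK6, chr7:92836524-92836823, minus strand: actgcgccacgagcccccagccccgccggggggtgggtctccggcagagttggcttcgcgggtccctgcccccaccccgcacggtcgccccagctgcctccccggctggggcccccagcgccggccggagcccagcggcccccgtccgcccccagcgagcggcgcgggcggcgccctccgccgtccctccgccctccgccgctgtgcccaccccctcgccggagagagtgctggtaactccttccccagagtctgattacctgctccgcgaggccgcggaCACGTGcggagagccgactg
RBL1, chr20:37095948-37096247, minus strand: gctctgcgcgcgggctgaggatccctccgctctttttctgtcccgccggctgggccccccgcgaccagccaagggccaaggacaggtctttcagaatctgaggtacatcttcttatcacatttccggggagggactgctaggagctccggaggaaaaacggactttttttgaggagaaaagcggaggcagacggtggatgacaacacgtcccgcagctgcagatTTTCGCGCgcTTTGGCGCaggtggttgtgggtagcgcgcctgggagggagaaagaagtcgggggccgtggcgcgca

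The CDK4 promoter holds 3 E-boxes, which begin at -216, -196 and -101 where 0 is the first base after the 250 upstream bases. At least 3 E-boxes are found in 33 of the 35116 promoters (0.0940%). The CDK6 promoter holds 1 E-box, at 30, downstream of the start, and its other listed start holds none. The RBL1 promoter holds 2 E2F matches side by side, the first from -26 to -19 and the second from -16 to -9, and at least 2 are found in 51 promoters (0.145%). CDK4 with its E-boxes was 1.57-fold lower and CDK6 with its single one 2.25-fold higher on the cMyc shRNA array. Whether the E-boxes have a part in either difference was not tested. RBL2 has a CHR match at 24 and 2 GC boxes at its first listed start, and its second start has no match. The starts listed for RB1 and CCND3 lie inside the annotated genes, so the promoters at the 5′ ends of these genes were not searched. The listed ones hold no E-box, E2F or CHR match. A match is a description of letters and says nothing on binding in these cells.

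**Figure D4:**
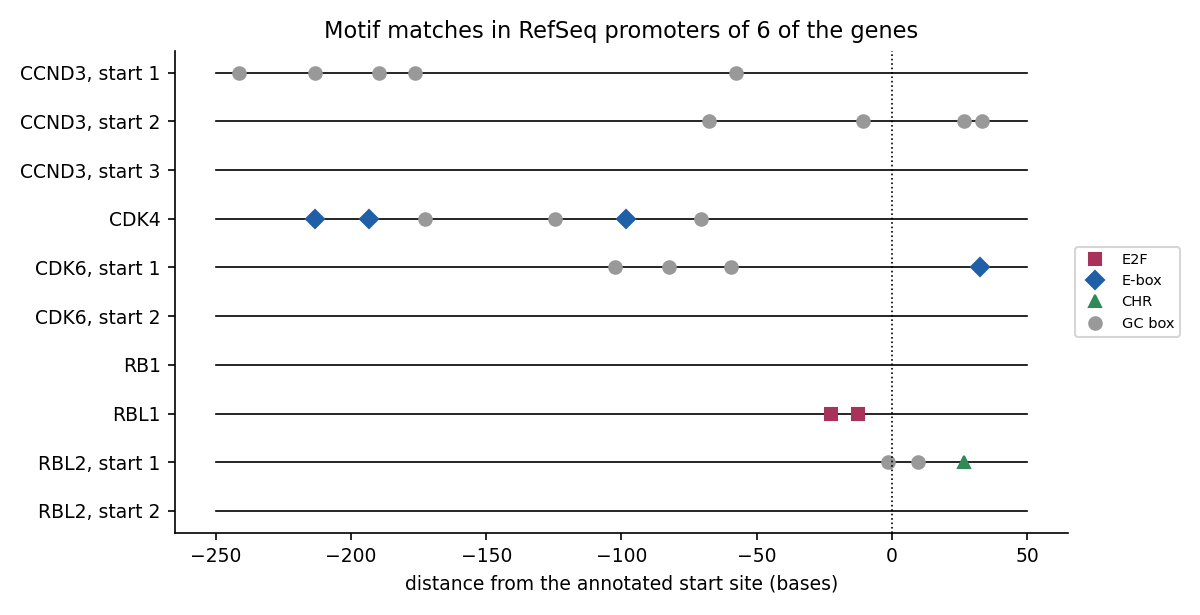
Positions of motif matches (symbols by motif) along 10 RefSeq promoters of 6 of the genes (those of RB1 and CCND3 at starts inside the gene), with the distance from the annotated start in bases on the horizontal axis. The 3 E-boxes of CDK4 lie upstream of the start, the E-box of the first CDK6 start lies downstream of it, and the pair of E2F matches of RBL1 lies just upstream.

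The other genes of the pathway were taken from lists of function, which were also chosen with earlier results of these data known. The background for each list count below is the 10258 measured genes. Of those, 206 were past 2-fold higher and 410 past 2-fold lower, 6.01% in either direction. Whether any list differs from that background was not tested. Of the cyclins outside the 8 genes, 22 of 28 were measured, with 1 past 2-fold higher, 6 past 2-fold lower and a median difference of -0.14. The cyclins of S phase and mitosis were lowest, CCNB1 at -2.38, CCNA2 at -2.37 and CCNB2 at -2.00. The partners of CDK2 in late G1 were CCNE2 at -1.29 and CCNE1 at -0.93. CCNF, a cyclin that is a subunit of a ubiquitin ligase, had -1.28 and CCNJ had -1.26. CCNYL1 was the one past 2-fold higher, at 1.24, with a level of 3.56 on the control array that lay under the filter. CCNJL was nearest to 0, at 0.0073. So the D-type cyclins, on their brightest probe sets, lay nearer to 0 than the measured CCNE1, CCNE2, CCNA2, CCNB1 and CCNB2. This leaves out CCNB3, at -0.22 under the filter, and CCNA1, which had no named probe set.

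Among the other CDKs, 15 of 18 were measured and 1 was past 2-fold: CDK1, the mitotic kinase, had 4.98 on the cMyc shRNA array and 7.23 on the control array, a difference of -2.26. The list had a median of -0.069, CDK17 was highest at 0.43 and CDK16 was nearest to 0 at -0.069. No other kinase of the list reached 2-fold higher, and CDK6 with its 1.17 lay above all 15. Of the CDK inhibitor list, 1 of 8 genes was measured: CDKN3, a phosphatase that acts on CDK2, had 4.96 with the cMyc shRNA and 6.55 with the control shRNA, a difference of -1.59. CDKN2A, the inhibitor of CDK4 and CDK6, had 3.08 with the cMyc shRNA and 3.12 with the control shRNA, both under the filter. The other inhibitors were not analysed here, so the balance of kinases and inhibitors is not covered.

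Of the 11 E2F and DP factors, 7 had a named probe set here and all 7 were measured. Of these, 2 were past 2-fold lower and 0 past 2-fold higher, with a median difference of -0.22. E2F1, an activating E2F restrained by RB1, had 4.12 on the cMyc shRNA array and 5.65 on the control array, a difference of -1.52. TFDP1, the common dimerisation partner, had -1.05. The activators E2F2 and E2F3 had -0.22 and -0.15, the atypical repressors E2F8 and E2F7 had -0.31 and 0.39, and TFDP2 was nearest to 0 at 0.022. E2F4 and E2F5, the partners of RBL1 and RBL2, were not analysed here.

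All 9 genes of the MuvB, MYB and FOXM1 list were measured, with 3 past 2-fold lower, 0 past 2-fold higher and a median difference of -0.28. These 3 were FOXM1 (-2.74) and MYBL2 (-1.87), which join or follow MuvB in the activation of mitotic genes, and the core subunit LIN9 (-1.20). The other core subunits lay within 2-fold, LIN54 at -0.51, LIN52 at -0.28, the histone-binding RBBP4 at -0.049 and LIN37 at 0.34. MYBL1 had -0.095 and DYRK1A, the kinase that promotes DREAM assembly, had 0.24.

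Of the 26 genes that activate, assemble or turn over CDK complexes, 19 had a named probe set here and all 19 were measured. Of these, 3 were past 2-fold lower and 0 past 2-fold higher, with a median difference of -0.11. CKS1B, a small CDK-binding subunit, had -1.28, and the activating phosphatases CDC25B, CDC25C and CDC25A had -1.09, -1.06 and -0.87. CDC25C had 3.39 with the cMyc shRNA, under the filter, and 4.44 with the control shRNA. CDK2AP1, a CDK2-associated protein, was nearest to 0 at -0.0069 and SPDYA, a noncyclin activator of CDK2, was highest at 0.19. SKP2 was not analysed here. Of the 24 pocket protein partners and phosphatases, 15 had a named probe set here, none of them one of the 5 phosphatases. All 15 were measured, with 0 past 2-fold in either direction and a median of -0.0095. Their range ran from SUV39H1, a histone methyltransferase that RB1 recruits, at -0.82 to KDM5A, a histone demethylase found as an RB1-binding protein, at 0.75, and SIN3A was nearest to 0 at -0.0095.

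Of the 43 G1/S genes that E2Fs switch on, 28 had a named probe set here and all 28 were measured. Of these, 22 were past 2-fold lower with the cMyc shRNA and 0 past 2-fold higher, with a median of -1.28. CCNE1, CCNE2, CCNA2 and E2F1 are among the 28 and also stand in the cyclin or E2F lists above. DTL had -2.47, CCNA2 -2.37, RRM2 -2.25, MCM10 -2.13, GINS2 -1.94 and CDC6 -1.86, while the replication clamp PCNA had 0.0093. RBL1 at -1.26 and CDK2 at -1.08 lay near that median, and CDK4, RBL2, both D-type cyclins, RB1 and CDK6 lay above it. Whether the 8 genes differ from this list was not tested, since 1 array per group gives no spread.

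**Figure D5:**
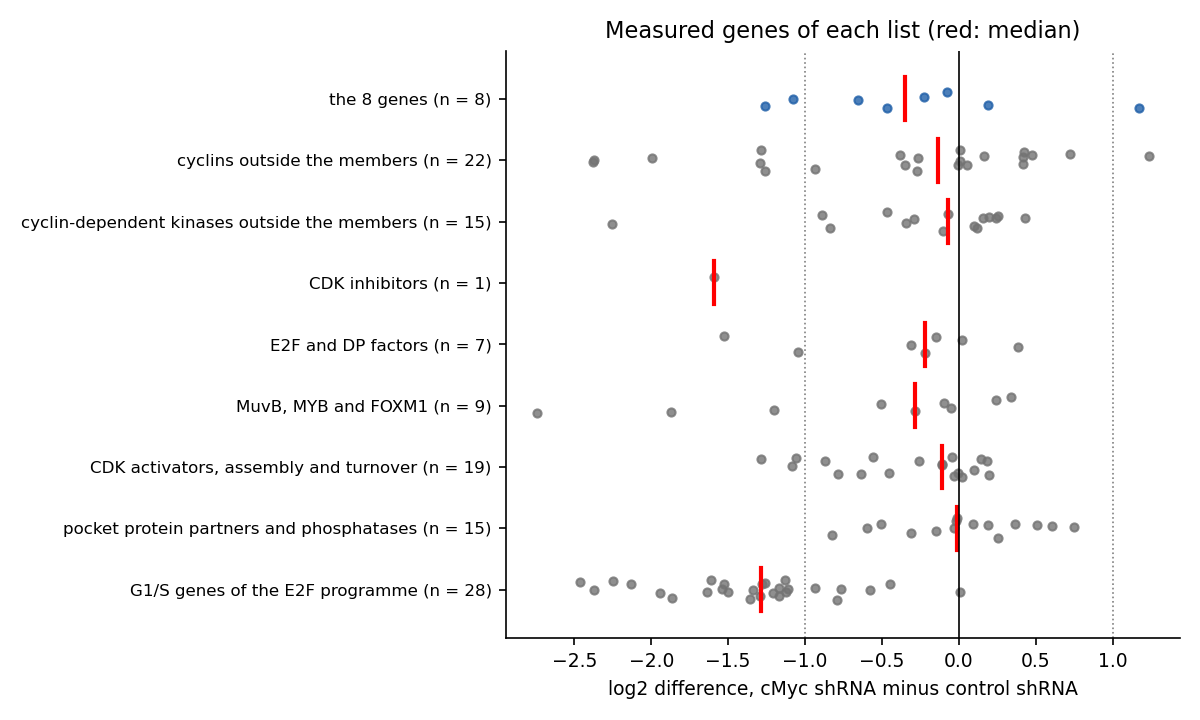
Log2 difference (horizontal axis, cMyc shRNA minus control shRNA) of each measured gene for the 8 genes in blue and for 8 lists of the pathway in grey. Each gene has 1 point per list, and CCNE1, CCNE2, CCNA2 and E2F1 stand in more than 1 list. Red lines mark the medians and dotted lines 2-fold. The medians of the lists lie between -0.28 and -0.0095 except for the G1/S genes of the E2F programme at -1.28 and the CDK inhibitor list, which is 1 gene at -1.59.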

How the data were processed

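Gene expression was measured on 2 arrays, 1 of HT1080 cells with a cMyc shRNA and 1 with a control shRNA. The authors' deposited table gives a log2 level for each of 53617 probe sets, from 1.41 to 13.9, made with Affymetrix Expression Console per the submitters' processing notes. Its version, and how it corrected background, normalized and summarised the probes, are not stated in these sources, and the log base was inferred from the range of the values. The number of arrays limits the precision. GEO's platform annotation gave 1 symbol to 16098 probe sets (30.0%), 0 had several, and 37519 are unnamed here. The probe set with the highest mean stood for a gene. Differences were computed from the values as deposited, with a 2-fold rule of size. The members and lists were chosen with earlier results of these data known. The genes named are all members, MYC, and from each list those farthest past 2-fold (6 at most), the one nearest to 0, the one farthest the other way, and the D, E and A cyclins, CDK inhibitors, E2F, DP, MuvB and CDC25 genes. Marker and interferon genes are named only as a check of the arrays. The 8 alternatives were 3 scalings (median centring, quantile, loess with span 0.3), the mean over probe sets, 2 level filters and rules of 1.5-fold and 3-fold. The code ran on Python 3.11.15, numpy 2.4.6, pandas 2.3.3, statsmodels 0.14.6 and matplotlib 3.10.9. It was run on simulated data with larger differences than those of the 8 genes and less noise than the technical SD. That run checks the code and does not cover differences of the size reported here.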

Additional observations from a re-analysis of the deposited data

How the results depend on the processing

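Other scalings, level filters and the mean over probe sets gave 46 values for the 8 genes, of which 45 stayed within the technical SD of 0.34 of the reported value. Many of these values could not move. A level filter repeats the value of each gene that it keeps, and the mean over probe sets can change only CCND2. The exception was CCND2, at 0.16 with the mean over its probe sets. CDK6 ranged from 1.13 to 1.21, CDK2 from -1.12 to -1.04 and RBL1 from -1.31 to -1.20, so these 3 stayed past 2-fold. Of the 6 settings that gave them a value, only the 3 scalings could change it. With a filter at the 75th percentile of level, CCND2 and CCND3 were not measured, and 126 genes were at least 2-fold higher in all, by construction from fewer genes. With the 1.5-fold rule 900 genes were higher and 1224 lower, and with the 3-fold rule 61 were higher and 113 lower, with 0 members on either side. No paired analysis was possible because there is 1 array per group. Array signals under the level filter have no detection call, which limits the dimmer CCND2 probe set, CCNYL1, CDC25C and 7 of the 21 interferon-stimulated genes.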
